A study of Mus musculus with 24 samples.

Results

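Guanylin-expressing cells of the upper gut were compared between neighbouring regions of the small intestine, the duodenum and the jejunum. The comparison holds 6 of the 24 RNA-seq libraries of the series, 3 of Venus-positive cells of each region, chosen by the tissue and the sort in the sample labels. It covers all genes of the deposited count table. Every library came from mice of the Guca2a-Venus strain, which carry a bacterial artificial chromosome. In it the coding part of Guca2a, the gene of guanylin, is replaced by that of the yellow fluorescent protein Venus. The strain descends from 1 founder, and the transgene, not the endogenous gene, marks the cells. Mice were on standard chow with no treatment, and their age is not given in the sources used here. The study took the duodenum as the first centimetres of the small intestine and the jejunum as a segment from its middle. The epithelium was digested to single cells, and the fluorescent (labelled GFP positive) cells were sorted from the non-fluorescent (GFP negative) cells after removing dead cells, debris and CD45-positive immune cells. The matching 6 libraries of Venus-negative cells from the same regions were used as the background for the regional difference, and the ileal and colonic libraries entered the model but are not described.

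The lining of the small intestine is renewed from stem cells in the crypts, whose progeny become either secretory or absorptive cells. Goblet cells release mucus and Paneth cells release antimicrobial proteins at the crypt base, and both depend on a large endoplasmic reticulum. Enterocytes carry a brush border of microvilli loaded with digestive enzymes and transporters, and they package dietary fat into chylomicrons. The duodenum meets acid, pancreatic juice and most dietary iron and calcium first, while the jejunum takes up most of the sugar, peptide and fat. Guanylin and uroguanylin act from the lumen on guanylate cyclase C and so move salt and water across the epithelium.

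Genes of both the secretory and the absorptive lineage were measured in Venus-positive cells, in opposite order between the regions. Muc2 (chr7:141690340-141754693, plus strand, GRCm38), the gel-forming mucin of goblet cells, had 2034, 2156 and 2156 CPM in the duodenum against 209, 110.5 and 155 CPM in the jejunum. Spdef, a transcription factor of goblet and Paneth cell maturation, had 40.97, 32.3 and 26 CPM in the duodenum against 2.04, 1.45 and 2.99 CPM in the jejunum. Mep1a, the alpha subunit of the brush-border protease meprin A, showed the reverse order, with 3.99, 3.53 and 6.75 CPM in the duodenum against 174, 131 and 184 CPM in the jejunum. Vil1, which encodes the actin-bundling protein villin of microvilli, had 277, 208 and 321 CPM in the duodenum against 1308, 1610 and 1341 CPM in the jejunum. Levels are counts scaled to library size (CPM) and are given throughout in the order of libraries 1, 2 and 3 of each region. In none of these 4 genes did the libraries of the regions overlap. By the edgeR quasi-likelihood test, with Benjamini-Hochberg adjusted p-values over all genes tested, Muc2 (log2 fold change 3.74 ± 0.45, adjusted p = 3.2e-07) and Spdef (log2 fold change 3.94 ± 0.48, adjusted p = 3.92e-07) were higher in the duodenum. Mep1a (log2 fold change -5.11 ± 0.36, adjusted p = 8.14e-11) and Vil1 (log2 fold change -2.40 ± 0.30, adjusted p = 5.55e-07) were higher in the jejunum. Here and below a positive log2 fold change means a higher level in the duodenum, ± after it gives the standard error, and 3 libraries stand in each group. These are bulk libraries, in which more cells of a type and more RNA per cell cannot be told apart. The labels name no mouse, so the p-values measure only the spread between these libraries.

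**Figure D1:**
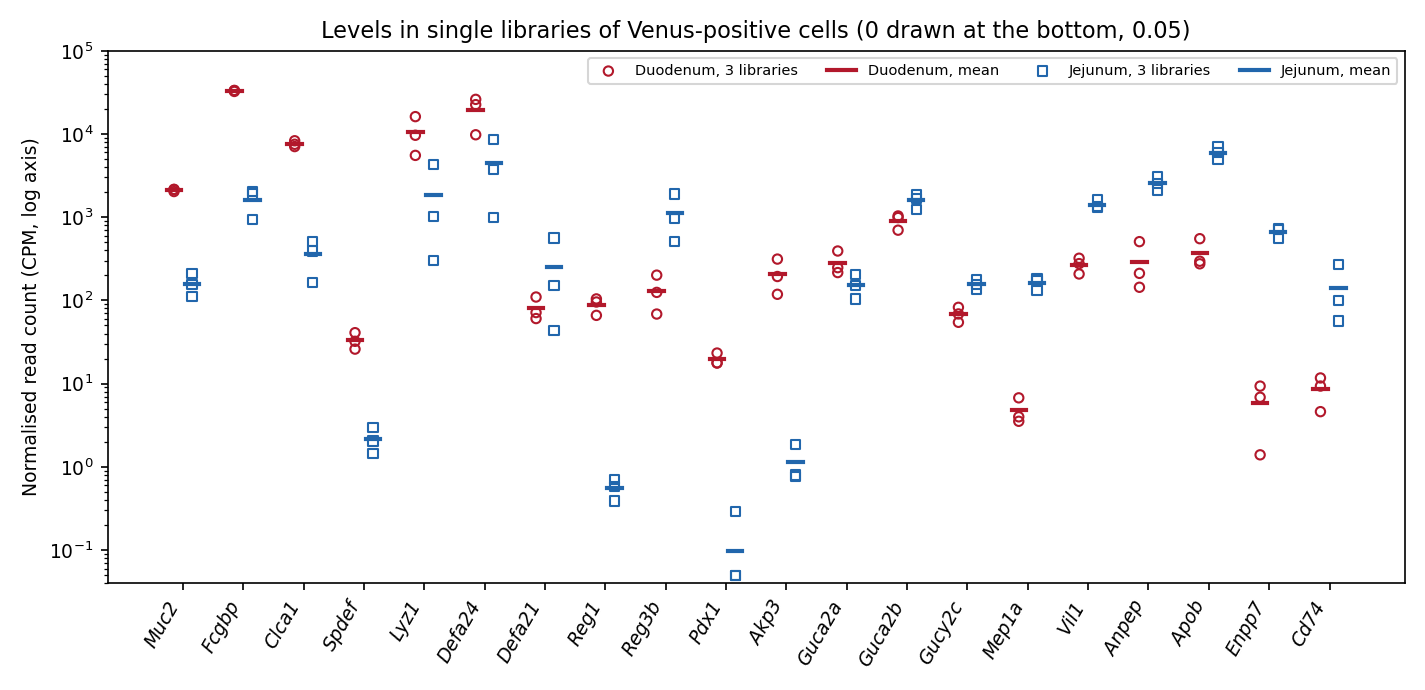
Levels of single genes in the 3 duodenal and 3 jejunal libraries of Venus-positive cells, in CPM on a log axis, with each point 1 library and a value of 0 drawn at the bottom. Muc2 lies between 2034 and 2156 CPM in the duodenum and between 110.5 and 209 CPM in the jejunum, and Mep1a lies in the reverse order.

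The regional difference was broad. Of 15044 genes tested, 2765 (18.4%) were higher in the duodenum and 2226 (14.8%) were higher in the jejunum at an adjusted p of 0.05. In 6378 genes (42.4%) the 3 libraries of one region did not overlap with those of the other. Most of the called differences were large by their fitted log2 fold changes. At least 2-fold were 2588 of the 2765 duodenal genes and 1833 of the 2226 jejunal genes, and 365 and 196 were at least 16-fold. The called genes include 135 duodenal and 73 jejunal ones with no read in the lower region. For these the fitted size has no measured lower level and can exceed what the reads bound. The median log2 fold change over all genes tested was 0.11, and the shares given here are the background against which each gene list below is read. In Venus-negative cells the same contrast called 46 genes (0.306%) higher in the duodenum and 63 (0.419%) higher in the jejunum.

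The libraries themselves differed between the regions. Duodenal libraries held 7458616 to 11165593 reads assigned to genes and jejunal libraries 13398507 to 18878119. The mitochondrial share of those reads was 32.3 to 46.6% in the duodenum and 47.1 to 60.6% in the jejunum and consisted almost wholly of mitochondrial ribosomal RNA, so that 5047851 to 5957897 and 6853319 to 7434139 reads remained for all other genes. Reads aligning to several places made up 28.4 to 31.8% of reads in the duodenum and 17.2 to 25.6% in the jejunum. At these depths 3 reads, the limit used where a gene had none, were worth 0.246 to 0.338 CPM in the duodenum and 0.167 to 0.219 CPM in the jejunum. Immediate early and heat shock genes, which respond to tissue handling, were called in 7 of 11 cases, 2 higher in the duodenum and 5 higher in the jejunum, the latter count falling to 1 without the first jejunal library. It was 3 without the first or the third duodenal or the second jejunal library. Beyond the settings tried, the part of these differences in the results was not tested.

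Nearly all goblet cell genes listed were higher in the duodenum. Of 22 goblet cell markers, all tested, 21 were higher in the duodenum, none was higher in the jejunum, and the list median was a log2 fold change of 3.76. Their summed level was 53900 to 61800 CPM in the duodenum and 1960 to 5010 CPM in the jejunum, against 345 to 474 and 320 to 487 CPM in the Venus-negative cells of the regions. Fcgbp, a large mucus protein bound to Muc2, took the most reads of the list, with 33360, 33220 and 32430 CPM in the duodenum against 2034, 936 and 1901 CPM in the jejunum (log2 fold change 4.34 ± 0.47, adjusted p = 6.51e-08). Clca1, a secreted metalloprotease of mucus, had 8292, 7520 and 7057 CPM in the duodenum against 394, 165 and 512 CPM in the jejunum (log2 fold change 4.42 ± 0.46, adjusted p = 4.31e-08). Zg16, a lectin that keeps bacteria off the epithelium, had 9755, 7627 and 7087 CPM in the duodenum against 772, 315 and 1040 CPM in the jejunum (log2 fold change 3.52 ± 0.43, adjusted p = 4.04e-07). The duodenal libraries lay close together for these genes, while the second jejunal library was the lowest in each. Tff3, a trefoil peptide of the mucus layer, and Agr2, a disulfide isomerase needed for Muc2 assembly, differed by less (log2 fold changes of 3.46 and 2.98). Ern2, the ER stress sensor particular to mucous epithelia, had 91.9, 73.3 and 49.9 CPM in the duodenum against 3.96, 2.06 and 3.65 CPM in the jejunum (log2 fold change 4.48 ± 0.51, adjusted p = 1.62e-07). Retnlb, a resistin-like antimicrobial protein, had 0.717, 578 and 5.18 CPM in the duodenum against 0.767, 11.3 and 0.146 CPM in the jejunum (log2 fold change 5.55 ± 2.02, adjusted p = 0.0341). This call rested on 1 library, and the log2 fold change was -0.51 (adjusted p = 0.89) without the second duodenal library. The call was also lost without the first or the third jejunal library (5.06, adjusted p = 0.112, and 5.001, adjusted p = 0.0835) and with offsets for GC content and exon length (3.95, adjusted p = 0.115), and DESeq2 gave no adjusted p. B3gnt6, which starts a branch of mucin glycans, was at or below 1.51 CPM in all 6 libraries and was not called (log2 fold change -0.55, adjusted p = 0.751).

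Transcription factors of the secretory lineage followed the goblet markers, some of which are on both lists. Of 12 factors 11 were higher in the duodenum, with a median log2 fold change of 3.33. Atoh1, the factor that commits progenitors to the secretory fate, had 79.9, 81.7 and 75.6 CPM in the duodenum against 7.29, 3.07 and 6.86 CPM in the jejunum (log2 fold change 3.79 ± 0.52, adjusted p = 2.42e-06). Foxa2, a forkhead factor that binds the Muc2 promoter, had 18.3, 10.6 and 7.43 CPM in the duodenum against 0.831, 0.390 and 0.365 CPM in the jejunum (log2 fold change 4.50 ± 0.60, adjusted p = 1.4e-06). Each of these stood several times higher in every duodenal library than in any jejunal one. Gfi1 (log2 fold change 3.20 ± 0.79, adjusted p = 0.00224), which keeps secretory cells from turning endocrine, and Sox9 (log2 fold change 3.16 ± 0.44, adjusted p = 2.38e-06), which Paneth cells require, were also higher in the duodenum. Klf4, a goblet cell differentiation factor that enterocytes also express, was the member not called, with 160.2, 145 and 114 CPM in the duodenum against 290.2, 262 and 179 CPM in the jejunum (log2 fold change -0.80 ± 0.35, adjusted p = 0.0789). It passed without the third jejunal library (-0.99, adjusted p = 0.0438), with the 6 libraries fitted alone (-0.83, adjusted p = 0.0417) and with offsets for GC content and exon length (-0.98, adjusted p = 0.0385).

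Paneth cell genes were higher in the duodenum too, but with a wider spread between libraries. Of 20 markers 17 were tested, and 14 of them were higher in the duodenum, 1 was higher in the jejunum and 2 were not called, with a median of 2.20. Defa5, Defa20 and Defa23 had at most 1 read in any of the 6 libraries. The summed level was 45600, 64200 and 25500 CPM in the duodenal libraries and 6850, 1890 and 18800 CPM in the jejunal ones, so that the third jejunal library came near the third duodenal one. Defa24, an alpha-defensin of Paneth cell granules, had 22510, 26060 and 9784 CPM in the duodenum against 3747, 991 and 8532 CPM in the jejunum (log2 fold change 2.14 ± 0.63, adjusted p = 0.00923). Lyz1, the Paneth cell lysozyme, had 9649, 16160 and 5530 CPM in the duodenum against 1016, 302 and 4266 CPM in the jejunum (log2 fold change 2.49 ± 0.68, adjusted p = 0.00526). Mmp7, the protease that activates pro-defensins, had 425, 1118 and 287 CPM in the duodenum against 60.2, 24.4 and 168 CPM in the jejunum (log2 fold change 2.86 ± 0.55, adjusted p = 0.000194). In all 3 genes the second duodenal library was the highest and the second jejunal library the lowest. Defa21 went the other way, with 71.5, 109.9 and 60.5 CPM in the duodenum against 152, 43.2 and 561 CPM in the jejunum (log2 fold change -1.64 ± 0.56, adjusted p = 0.0229). Its highest value came from the third jejunal library, without which the log2 fold change was -0.28 (adjusted p = 0.703). Its call was also lost without the first (-1.57, adjusted p = 0.0692) or the third duodenal library (-1.48, adjusted p = 0.0824) and with the 6 libraries fitted alone (-1.66, adjusted p = 0.0614). Defa22 had 74.5, 78.6 and 50.2 CPM in the duodenum against 91.9, 31.7 and 396 CPM in the jejunum and was not called (log2 fold change -1.35 ± 0.54, adjusted p = 0.0538), and it was 0.13 without that library. It was called higher in the jejunum with RLE factors (adjusted p = 0.0466), no filter on low counts (0.000169) and offsets for GC content and exon length (0.00117), and without the first (0.0312) or second jejunal library (0.00588). The call of Defa24 was lost without the second jejunal library (1.69, adjusted p = 0.0541) and with offsets for GC content and exon length (1.37, adjusted p = 0.0655). The count of markers higher in the duodenum fell from 14 to 8 without the second duodenal or the second jejunal library and to 9 without the first jejunal one, and it was 7 with those offsets. Alpha-defensin genes are near-identical copies of one another, and reads could be split or lost between them.

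Members of the Reg family, small secreted lectins, were called in opposite directions, 2 of the 5 tested being higher in the duodenum and 3 in the jejunum. Reg1, first described in regenerating pancreatic islets, had 66.2, 104 and 95.8 CPM in the duodenum against 0.703, 0.390 and 0.583 CPM in the jejunum (log2 fold change 7.30 ± 0.53, adjusted p = 8.14e-11). Reg4, a marker of secretory and endocrine cells, had 229, 229 and 149 CPM in the duodenum against 29.2, 4.96 and 63.4 CPM in the jejunum (log2 fold change 2.64 ± 0.66, adjusted p = 0.00239). Reg3b and Reg3g, bactericidal lectins made by Paneth cells and enterocytes, were higher in the jejunum, Reg3b with 68.6, 201 and 125 CPM in the duodenum against 515, 964 and 1895 CPM in the jejunum (log2 fold change -3.09 ± 0.64, adjusted p = 0.000396). The regions did not overlap in any of the 5 genes, and the third jejunal library was the highest in Reg3a, Reg3b and Reg3g. Reg3d had no read in the 6 libraries.

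**Figure D2:**
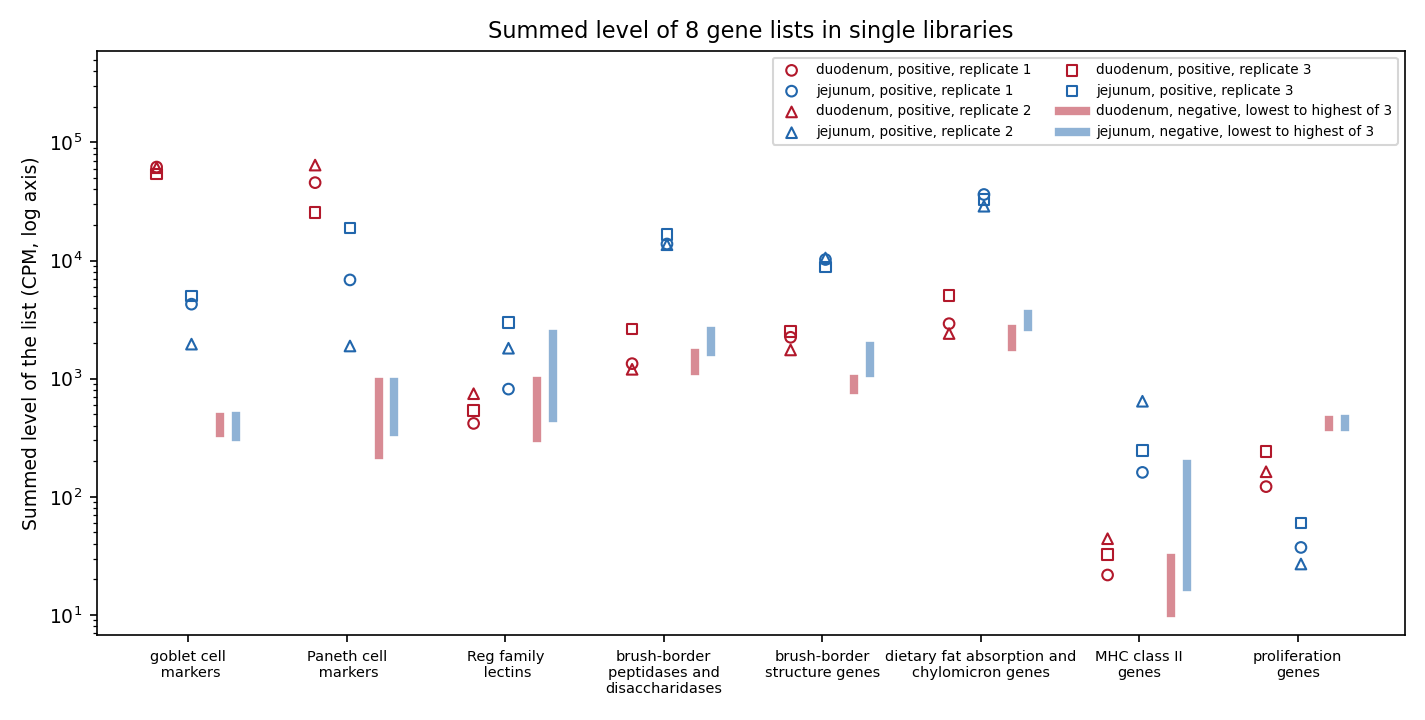
Summed level of 8 gene lists in single libraries, in CPM on a log axis, for Venus-positive and Venus-negative cells of both regions. Goblet cell markers sum to 53900 to 61800 CPM in the Venus-positive duodenum and 1960 to 5010 CPM in the Venus-positive jejunum, and brush-border and fat absorption genes lie in the reverse order.

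Enzymes that build and sulfate mucin glycans were split. Of 21 tested, 14 were higher in the duodenum, 4 were higher in the jejunum and 3 were not called, and St6galnac1 and Chst5 had no read. Chst4, a sulfotransferase of mucin chains, had 68.4, 51.8 and 62.7 CPM in the duodenum against 2.62, 1.90 and 6.56 CPM in the jejunum (log2 fold change 4.05 ± 0.50, adjusted p = 4.71e-07). Gcnt3, which branches mucin glycans, had 264, 219 and 207 CPM in the duodenum against 16.2, 9.71 and 21.6 CPM in the jejunum (log2 fold change 3.86 ± 0.35, adjusted p = 3.85e-09). St3gal1, which caps mucin glycans with sialic acid, had 4.71, 6.98 and 5.96 CPM in the duodenum against 58.3, 19.9 and 23.99 CPM in the jejunum (log2 fold change -2.53 ± 0.61, adjusted p = 0.00195). It was higher in the jejunum, as were St3gal4, Gcnt4 and Fut2. The summed level of the whole list was 1320 to 1460 CPM in the duodenum and 991 to 1240 CPM in the jejunum.

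Genes for protein folding, translocation and the unfolded protein response in the endoplasmic reticulum were mostly higher in the duodenum. Of 41 tested, 27 were higher in the duodenum, 1 was higher in the jejunum and 13 were not called, with a median of 1.30, and Derl3 was not tested. Hspa5, the chaperone BiP, had 461, 517 and 395 CPM in the duodenum against 73.9, 104 and 232 CPM in the jejunum (log2 fold change 1.75 ± 0.43, adjusted p = 0.0022). Pdia6, a protein disulfide isomerase, had 147, 154 and 152 CPM in the duodenum against 9.08, 8.42 and 40.8 CPM in the jejunum (log2 fold change 2.96 ± 0.45, adjusted p = 7.89e-06). Creld2, a secreted ER stress-response protein, had 18.9, 30.4 and 24.6 CPM in the duodenum against 4.73, 8.37 and 14.7 CPM in the jejunum (log2 fold change 1.41 ± 0.41, adjusted p = 0.00865). In each of the 3 genes the third jejunal library was the highest of its region and still below every duodenal library, and the call of Creld2 was lost without the first jejunal library (1.09, adjusted p = 0.0728) and with offsets for GC content and exon length (0.93, adjusted p = 0.0688). Xbp1 (log2 fold change 1.39 ± 0.28, adjusted p = 0.000303), the transcription factor activated by Ern1 and Ern2, rose less. Ddit3, the factor CHOP of sustained ER stress, was the 1 member higher in the jejunum, with 3.89, 3.53 and 4.61 CPM in the duodenum against 15.3, 11.4 and 9.19 CPM in the jejunum (log2 fold change -1.58 ± 0.44, adjusted p = 0.00607). P4hb, the major protein disulfide isomerase, had 1034, 1276 and 1078 CPM in the duodenum against 732, 738 and 1269 CPM in the jejunum and was not called (log2 fold change 0.31 ± 0.37, adjusted p = 0.558). Neither were the sensors Atf6 and Ern1 or the degradation ligase Syvn1. The summed level of the list was 5230 to 5590 CPM in the duodenum and 2110 to 3670 CPM in the jejunum. The goblet and Paneth lists, whose cells are rich in this machinery, moved with it (summed levels above), and their part in the result was not tested.

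The promoters of the 3 ER genes just described are shown because each holds the ER stress element, the binding motif of Atf6 with the factor NF-Y. The motif searched was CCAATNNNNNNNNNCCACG on either strand, with N any base, and it is in capitals in these RefSeq windows (GRCm38.p6) of 250 bases before to 50 bases after the annotated start.

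Hspa5, chr2:34771840-34772139, plus strand: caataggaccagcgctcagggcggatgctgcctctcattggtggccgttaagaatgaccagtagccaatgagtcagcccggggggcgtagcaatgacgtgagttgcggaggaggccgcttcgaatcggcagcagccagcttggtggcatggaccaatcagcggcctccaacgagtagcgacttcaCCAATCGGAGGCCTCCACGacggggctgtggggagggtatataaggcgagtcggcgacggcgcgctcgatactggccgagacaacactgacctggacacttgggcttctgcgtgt
Pdia6, chr12:17266339-17266638, plus strand: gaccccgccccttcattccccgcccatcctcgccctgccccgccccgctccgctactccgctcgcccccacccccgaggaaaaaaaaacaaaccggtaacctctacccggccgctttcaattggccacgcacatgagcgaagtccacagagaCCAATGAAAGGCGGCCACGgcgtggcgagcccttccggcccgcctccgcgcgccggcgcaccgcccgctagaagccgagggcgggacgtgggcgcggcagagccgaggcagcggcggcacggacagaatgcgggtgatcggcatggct
Creld2, chr15:88819396-88819695, plus strand, with the motif on the other strand: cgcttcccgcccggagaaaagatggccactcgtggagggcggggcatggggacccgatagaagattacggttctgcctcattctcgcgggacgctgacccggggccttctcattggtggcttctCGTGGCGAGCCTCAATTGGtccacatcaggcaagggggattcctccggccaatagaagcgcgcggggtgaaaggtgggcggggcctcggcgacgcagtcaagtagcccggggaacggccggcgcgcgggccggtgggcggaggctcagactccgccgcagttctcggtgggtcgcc

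The matches lie from -65 to -47, -98 to -80 and -126 to -108 bases from the start. Of the 32 listed ER genes with a promoter window 9 carry the motif (28.1%), against 37 of 27025 genes with a window (0.137%). Of these 9, 6 were higher in the duodenum, 2 were not called and 1 was not tested. Among all genes higher in the duodenum 7 of 2017 with a window held it, and among genes higher in the jejunum 1 of 1672. A match describes the letters of the window and is not evidence of binding in these cells.

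Listed absorptive genes were mostly higher in the jejunum. All 20 brush-border peptidases, disaccharidases and related ectoenzymes listed were called, 18 of them higher in the jejunum and 2 higher in the duodenum, with a median log2 fold change of -3.47. The summed level was 1200 to 2640 CPM in the duodenum and 13600 to 16600 CPM in the jejunum. Enpp7, the alkaline sphingomyelinase, had 6.86, 1.40 and 9.34 CPM in the duodenum against 561, 719.7 and 713 CPM in the jejunum (log2 fold change -6.84 ± 0.57, adjusted p = 1.1e-09). Anpep, aminopeptidase N, had 211, 144 and 509 CPM in the duodenum against 2125, 2554 and 3038 CPM in the jejunum (log2 fold change -3.16 ± 0.49, adjusted p = 1.3e-05). Lct, lactase, had 114, 60.7 and 161 CPM in the duodenum against 1703, 1256 and 1812 CPM in the jejunum (log2 fold change -3.83 ± 0.46, adjusted p = 3.62e-07). Sis, sucrase-isomaltase, had 114, 107 and 185 CPM in the duodenum against 1322, 1069 and 1741 CPM in the jejunum (log2 fold change -3.35 ± 0.34, adjusted p = 2.1e-08). The third duodenal library was the highest of its region in these 4 genes and remained below every jejunal library. Alpi, intestinal alkaline phosphatase, had 92.6, 124 and 295 CPM in the duodenum against 504, 518 and 414 CPM in the jejunum (log2 fold change -1.49 ± 0.53, adjusted p = 0.0292), the smallest of the list. Its call was lost without the first (-1.20, adjusted p = 0.128) or second duodenal library (-1.31, adjusted p = 0.114) and without the first (-1.46, adjusted p = 0.0607) or second jejunal library (-1.39, adjusted p = 0.0734). It was also not called by DESeq2 (-1.52, adjusted p = 0.0687) or with at least 10 counts in all 6 libraries (-1.30, adjusted p = 0.0503). Akp3, the duodenal alkaline phosphatase, had 118, 194 and 314 CPM in the duodenum against 0.767, 1.84 and 0.802 CPM in the jejunum (log2 fold change 7.49 ± 0.51, adjusted p = 6.58e-11). Tmprss15, enteropeptidase, which activates trypsinogen, had 13.1, 23.4 and 37.7 CPM in the duodenum against 0, 0.0558 and 0.438 CPM in the jejunum (log2 fold change 7.26 ± 0.85, adjusted p = 5.37e-07). These are the 2 members higher in the duodenum, and their jejunal libraries were at or close to 0.

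Treh, trehalase, had 22.4, 15.8 and 66.4 CPM in the duodenum against 199, 159.6 and 183 CPM in the jejunum (log2 fold change -2.38 ± 0.45, adjusted p = 0.000167). The promoters of Enpp7 and Treh are shown because both hold CAAAGTCC, the core of the site bound by the enterocyte factors Hnf4a and Hnf4g, searched on either strand and printed in capitals.

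Enpp7, chr11:118987931-118988230, plus strand, with the motif on the other strand: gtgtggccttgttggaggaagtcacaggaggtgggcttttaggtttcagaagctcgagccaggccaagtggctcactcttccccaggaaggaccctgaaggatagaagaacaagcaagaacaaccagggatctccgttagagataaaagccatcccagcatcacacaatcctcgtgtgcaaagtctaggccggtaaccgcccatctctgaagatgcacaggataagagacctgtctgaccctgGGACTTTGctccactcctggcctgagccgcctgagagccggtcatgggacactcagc
Treh, chr9:44672983-44673282, plus strand: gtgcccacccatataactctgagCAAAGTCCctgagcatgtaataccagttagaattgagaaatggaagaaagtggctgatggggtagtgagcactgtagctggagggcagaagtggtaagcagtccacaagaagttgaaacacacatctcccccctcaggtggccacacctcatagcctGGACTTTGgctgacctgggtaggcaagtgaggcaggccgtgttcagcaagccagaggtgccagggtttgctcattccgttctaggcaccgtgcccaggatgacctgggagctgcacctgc

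Ace, Alpi and Ggt1 hold it as well, so that 5 of the 17 listed enzymes with a window (29.4%) carried a match, against 1.63% of all 27025 genes. All 5 were higher in the jejunum, as were 18 of the 20 listed enzymes, and a match is not evidence of binding here either. Across the table the motif was in 58 of 1672 windows of genes higher in the jejunum (3.47%) and in 33 of 2017 of those higher in the duodenum (1.64%), against 1.78% of all genes tested with a window.

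Structural genes of the microvillus were all higher in the jejunum, 14 of 14, with a median of -2.19 and a summed level of 1750 to 2500 CPM in the duodenum and 8830 to 10500 CPM in the jejunum. Of 23 tested genes for dietary fat absorption and chylomicron assembly, 21 were higher in the jejunum, 1 was higher in the duodenum and 1 was not called, and Apoc2 was not tested. Apob, the structural protein of chylomicrons, had 296, 275 and 552 CPM in the duodenum against 7003, 4920 and 5989 CPM in the jejunum (log2 fold change -3.996 ± 0.43, adjusted p = 7.12e-08). Apoa4, an apolipoprotein released with fat, had 1090, 732 and 1829 CPM in the duodenum against 14010, 8697 and 9685 CPM in the jejunum (log2 fold change -3.15 ± 0.52, adjusted p = 2.52e-05). Abca1, which loads cholesterol onto high-density lipoprotein, had 2.05, 1.97 and 1.80 CPM in the duodenum against 45.6, 88.6 and 52.9 CPM in the jejunum (log2 fold change -4.999 ± 0.45, adjusted p = 3.16e-09). Every jejunal library exceeded every duodenal library several times over. Scarb1, a lipoprotein and cholesterol receptor, was the exception on the list, with 4.10, 5.91 and 8.67 CPM in the duodenum against 0.256, 0.223 and 1.31 CPM in the jejunum (log2 fold change 3.40 ± 0.81, adjusted p = 0.0016).

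Sugar, peptide and amino acid uptake genes were called mostly on the jejunal side. Of 14 sugar genes 12 were higher in the jejunum and 2 were not called, Slc5a1, the sodium-glucose cotransporter, having 106, 101 and 222 CPM in the duodenum against 872, 960.1 and 1352 CPM in the jejunum (log2 fold change -2.89 ± 0.34, adjusted p = 2.34e-07). Among 14 peptide and amino acid transporters 9 were higher in the jejunum, 1 was higher in the duodenum and 4 were not called. Slc15a1, the peptide transporter PepT1, had 21.7, 14.04 and 37.4 CPM in the duodenum against 665, 391 and 642 CPM in the jejunum (log2 fold change -4.54 ± 0.43, adjusted p = 8.6e-09). Purine breakdown and nucleoside uptake genes included 7 of 9 higher in the jejunum, of which the ectonucleotidase Nt5e had 4.30, 7.31 and 5.96 CPM in the duodenum against 272, 149.9 and 108 CPM in the jejunum (log2 fold change -4.91 ± 0.79, adjusted p = 1.83e-05). Of 5 tested bile acid genes 3 were higher in the jejunum. Slc51b, a subunit of the basolateral bile acid exporter, had 5.63, 4.35 and 12.5 CPM in the duodenum against 58.4, 156 and 105 CPM in the jejunum (log2 fold change -3.84 ± 0.50, adjusted p = 9.74e-07). Fgf15, the hormone that bile acids induce in the distal gut, had no read in the duodenal libraries and 0.895, 2.12 and 0.802 CPM in the jejunal ones, at least 3.77-fold higher when the duodenum is set at 3 reads per library.

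Iron, calcium and folate absorption did not follow the other absorptive lists. Of 11 genes tested, 3 were higher in the duodenum, 3 were higher in the jejunum and 5 were not called, while Trpv6 and Cyp24a1 had at most 1 read in a library. S100g, the calcium-binding protein calbindin-D9k, had 15.3, 22.4 and 26.6 CPM in the duodenum against 0.192, 0 and 0.146 CPM in the jejunum (log2 fold change 7.54 ± 0.83, adjusted p = 7.81e-08). Slc40a1, the iron exporter ferroportin, had 10.6, 20.4 and 34.8 CPM in the duodenum against 0.575, 2.85 and 0.146 CPM in the jejunum (log2 fold change 4.14 ± 0.66, adjusted p = 1.76e-05). Tfrc, the transferrin receptor, had 20.5, 39.2 and 59.99 CPM in the duodenum against 5.11, 10.2 and 17.2 CPM in the jejunum (log2 fold change 1.88 ± 0.40, adjusted p = 0.000482). In each the third duodenal library was the highest, and no jejunal library reached the lowest duodenal one. Heph, the ferroxidase that works with ferroportin, had 74.05, 87.3 and 89.9 CPM in the duodenum against 223, 198 and 242 CPM in the jejunum (log2 fold change -1.40 ± 0.27, adjusted p = 0.000165). It was higher in the jejunum, as were Atp2b1 and Ftl1, the latter not without the second duodenal library (-0.86, adjusted p = 0.0508).

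**Figure D3:**
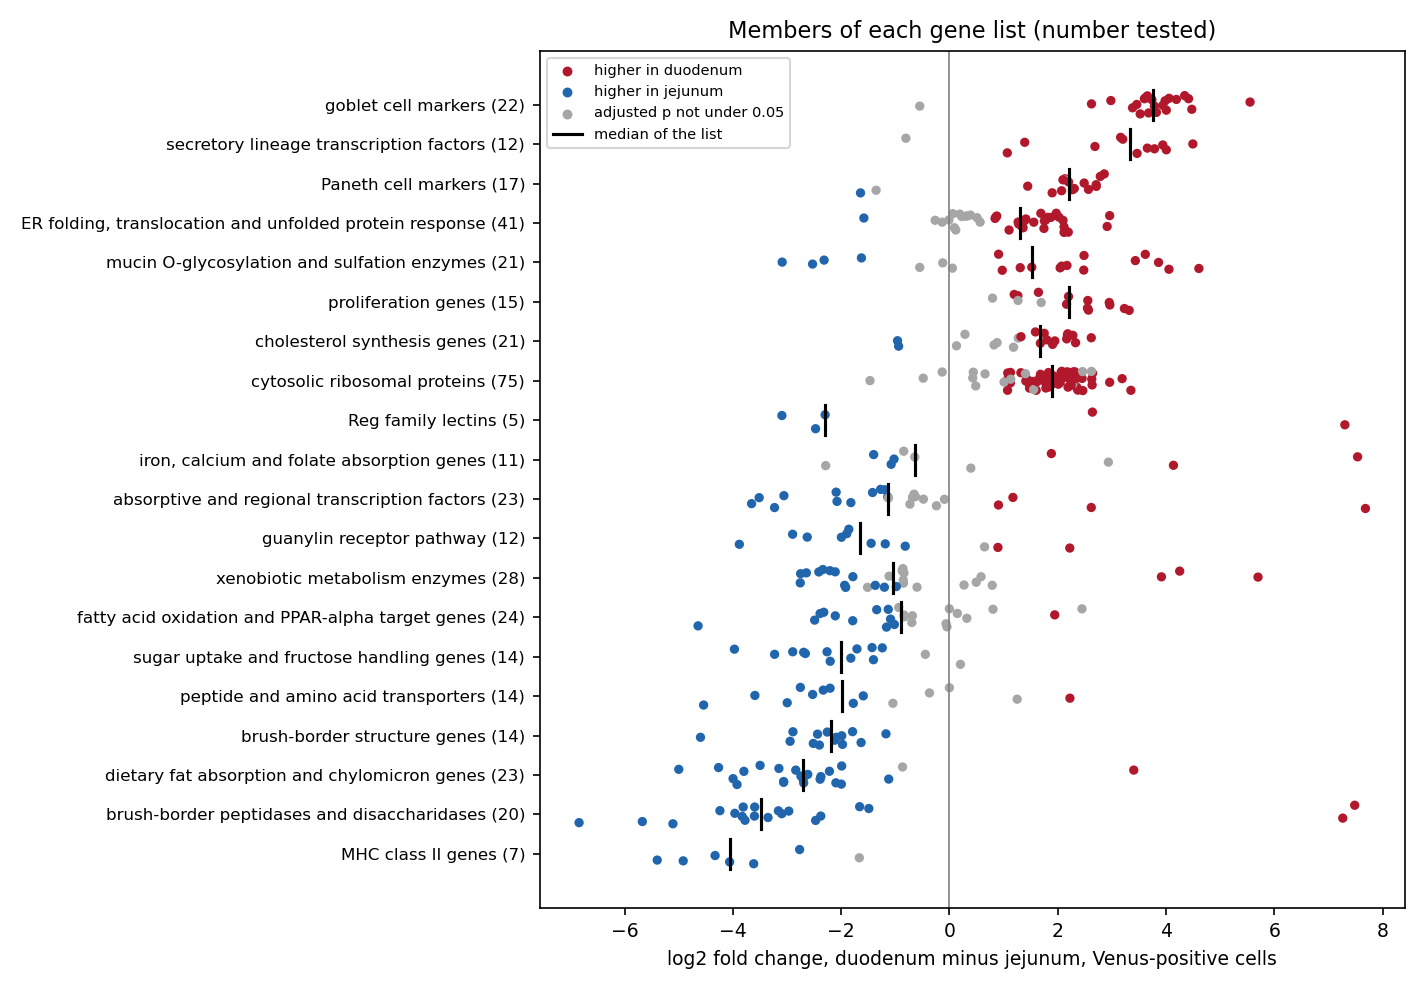
Log2 fold change (duodenum minus jejunum, Venus-positive cells) of every tested member of each gene list, with 1 point a gene, the colour giving its call and a line the list median. Goblet cell markers have a median of 3.76 and brush-border peptidases and disaccharidases a median of -3.47, the latter with 2 members far on the duodenal side.

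Regional and absorptive transcription factors were led by Pdx1, a homeobox factor of the duodenum and pancreas, with 17.8, 23.3 and 17.7 CPM in the duodenum against 0, 0 and 0.292 CPM in the jejunum (log2 fold change 7.68 ± 1.03, adjusted p = 2.22e-06). Onecut2, a duodenal factor, had 85.2, 67.4 and 50.5 CPM in the duodenum against 16.2, 7.98 and 8.90 CPM in the jejunum (log2 fold change 2.62 ± 0.47, adjusted p = 7.19e-05). Cdx1 (log2 fold change 0.91 ± 0.26, adjusted p = 0.00847) and the Notch target Hes1 were also higher in the duodenum, Cdx1 not without the first jejunal library (0.73, adjusted p = 0.0764) or with offsets for GC content and exon length (0.61, adjusted p = 0.0624). Of 23 factors on the list 4 were higher in the duodenum, 11 were higher in the jejunum and 8 were not called. Maf, a factor of mature enterocytes, had 26.02, 16.4 and 31.3 CPM in the duodenum against 223, 193 and 197 CPM in the jejunum (log2 fold change -3.06 ± 0.33, adjusted p = 5.51e-08). Creb3l3, a driver of fat-handling genes, had 23.04, 28.4 and 71.1 CPM in the duodenum against 500.1, 543 and 356 CPM in the jejunum (log2 fold change -3.51 ± 0.61, adjusted p = 5.65e-05). Hnf4a differed less, with 172, 165 and 198 CPM in the duodenum against 410.1, 495 and 316 CPM in the jejunum (log2 fold change -1.19 ± 0.29, adjusted p = 0.00178). Hnf4g had a log2 fold change of -2.09. Cdx2 (log2 fold change -0.68) and Gata4 (-0.63), which pattern the intestine and its proximal part, were not called, although Cdx2 passed without the third jejunal library (-0.86, adjusted p = 0.0425) and with offsets for GC content and exon length (-0.84, adjusted p = 0.0192), and Gata4 by DESeq2 (-0.66, adjusted p = 0.0481).

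Guca2a, whose regulatory sequence drives the Venus transgene, differed by less than most genes called. Only the coding part of the gene was replaced in the transgene. Its counts could therefore include reads of untranslated parts from the transgene, which was not tested. Guca2a had 248, 392 and 216 CPM in the duodenum against 150.2, 104 and 206 CPM in the jejunum (log2 fold change 0.90 ± 0.32, adjusted p = 0.0317), and the lowest duodenal library lay just above the highest jejunal one. This call did not hold throughout. With an offset for GC content and exon length the log2 fold change was -0.09 (adjusted p = 0.829). The call was also lost with the 6 libraries fitted alone (0.87, adjusted p = 0.0583) and without the second duodenal (0.59, adjusted p = 0.224), the first jejunal (0.87, adjusted p = 0.0925) or the second jejunal library (0.72, adjusted p = 0.159). Guca2b, uroguanylin, had 698, 990.5 and 1035 CPM in the duodenum against 1687, 1232 and 1878 CPM in the jejunum (log2 fold change -0.82 ± 0.30, adjusted p = 0.0368). It was higher in the jejunum, a call lost under many settings. It was lost with library size alone (adjusted p = 0.15), upper-quartile factors (0.0597), no filter on low counts (0.0572) and at least 10 counts in all 6 libraries (0.0822). It was also lost when only nuclear protein-coding genes were kept (0.0506), with the 6 libraries fitted alone (0.0764) and thinned counts (0.0528). Among single libraries, it was lost without the first (-0.67, adjusted p = 0.153) or second duodenal (-0.89, adjusted p = 0.0634) or the first (-0.79, adjusted p = 0.0941) or the third jejunal library (-0.69, adjusted p = 0.112). Gucy2c, their receptor guanylate cyclase C, had 54.6, 68.8 and 82.6 CPM in the duodenum against 137, 156 and 176 CPM in the jejunum (log2 fold change -1.19 ± 0.26, adjusted p = 7e-04), with no overlap between the regions. Per kilobase of exon (RPKM), the mean level of Guca2b exceeded that of Guca2a in both regions, 1044 against 480.5 in the duodenum and 1838 against 258.3 in the jejunum, and Gucy2c had 17.3 and 39.4. Of 12 genes of the receptor pathway 2 were higher in the duodenum, 9 were higher in the jejunum and 1 was not called. Pdzk1, a scaffold of brush-border transporters, had 18.3, 7.06 and 26.1 CPM in the duodenum against 223, 294 and 239 CPM in the jejunum (log2 fold change -3.88 ± 0.43, adjusted p = 9.49e-08). Prkg2, the cGMP-dependent kinase II that acts downstream, had 11.4, 3.69 and 15.3 CPM in the duodenum against 57.6, 93.5 and 73.5 CPM in the jejunum (log2 fold change -2.90 ± 0.36, adjusted p = 6.03e-07). Slc9a3, the sodium-proton exchanger that the pathway inhibits, had 20.5, 34.7 and 66.2 CPM in the duodenum against 71.1, 222 and 147 CPM in the jejunum (log2 fold change -1.86 ± 0.56, adjusted p = 0.0111). This call was lost without the first duodenal (-1.55, adjusted p = 0.0627) or the second jejunal library (-1.41, adjusted p = 0.0789). Cftr, the chloride channel that it opens, had 18.9, 20.3 and 33.5 CPM in the duodenum against 12.2, 10.2 and 24.1 CPM in the jejunum and was not called (log2 fold change 0.65 ± 0.37, adjusted p = 0.187). It passed only without the third jejunal library (1.11, adjusted p = 0.0323).

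Metabolic genes also divided by pathway. Of 21 cholesterol synthesis genes and their regulators 13 were higher in the duodenum, 2 were higher in the jejunum and 6 were not called, with a median of 1.68. Hmgcs1, the cytosolic HMG-CoA synthase, had 174, 101 and 128 CPM in the duodenum against 33.9, 19.97 and 72.3 CPM in the jejunum (log2 fold change 1.68 ± 0.48, adjusted p = 0.00763). Fdft1, squalene synthase, had 33.4, 30.7 and 36.2 CPM in the duodenum against 4.92, 5.02 and 10.1 CPM in the jejunum (log2 fold change 2.33 ± 0.37, adjusted p = 1.59e-05). In both genes the third jejunal library was the highest of its region and below every duodenal one. The call of Hmgcs1 was lost without the second jejunal library (1.37, adjusted p = 0.059). Sc5d was one of those higher in the jejunum, and its call was lost without the first duodenal (-0.91, adjusted p = 0.0506) or the third jejunal one (-0.76, adjusted p = 0.0756) and with library size alone (-0.82, adjusted p = 0.0861). Hmgcs1 was the 1 of the 14 listed genes with a promoter window (7.14%) to hold the sterol regulatory element searched, TCACNCCAC on either strand, which 1.44% of all 27025 genes hold. Over the whole table it was in 1.39% of the windows of genes higher in the duodenum, 1.85% of those of genes higher in the jejunum and 1.46% of those of all genes tested. Its window (chr13:119690101-119690400, plus strand) is shown with the match at -137 to -129 in capitals.

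Hmgcs1: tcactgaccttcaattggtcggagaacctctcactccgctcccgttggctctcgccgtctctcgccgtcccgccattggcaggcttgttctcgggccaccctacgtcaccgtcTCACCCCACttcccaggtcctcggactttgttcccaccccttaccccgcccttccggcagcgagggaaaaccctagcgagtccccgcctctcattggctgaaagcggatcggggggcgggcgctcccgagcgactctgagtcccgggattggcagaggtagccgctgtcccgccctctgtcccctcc

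Of 18 glycolysis and lactate genes 4 were higher in the duodenum and 7 were higher in the jejunum. Slc2a1, the glucose transporter GLUT1, had 19.4, 20.9 and 30.6 CPM in the duodenum against 0.575, 1.84 and 2.41 CPM in the jejunum (log2 fold change 3.88 ± 0.43, adjusted p = 9.49e-08). Hexokinases Hk1 and Hk2 were higher in the duodenum with it, Hk2 having 68.01, 83.2 and 49.9 CPM in the duodenum against 12.1, 11.6 and 7.88 CPM in the jejunum (log2 fold change 2.67 ± 0.35, adjusted p = 1.1e-06). Pfkfb3, Eno1 and Gapdh were higher in the jejunum. Of 24 genes of fatty acid oxidation and Ppara targets 11 were higher in the jejunum and 1 was higher in the duodenum, the former count being 7 without the first duodenal library. Xenobiotic enzymes counted 13 of 28 higher in the jejunum and 3 higher in the duodenum (Gsta1, Gsta4 and Cyp1a1). Gsta4, a glutathione transferase for lipid peroxidation products, had 256, 196 and 161 CPM in the duodenum against 12.3, 4.96 and 15.02 CPM in the jejunum (log2 fold change 4.25 ± 0.42, adjusted p = 1.3e-08).

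Cytosolic ribosomal protein genes were higher in the duodenum in 60 of 75 tested, with a median of 1.90 and none higher in the jejunum. Their summed level was 3410, 5420 and 3380 CPM in the duodenum and 834, 694 and 1600 CPM in the jejunum, with no overlap. These genes have many near-identical processed pseudogenes, and reads that align to several places cannot be assigned to them. The share of such reads over the whole library was higher in the duodenum (above). The reads lost from these genes were not measured, and the part of this share in the result was not tested. Nuclear genes of oxidative phosphorylation did not share the pattern, with 6 of 80 higher in the duodenum, 4 higher in the jejunum and 70 not called. These small counts ran from 1 to 20 and from 1 to 13 over the settings tried, with 1 higher in the duodenum without the second and 16 without the third jejunal library. None of the 7 mitochondrially encoded mRNAs tested was called (7 tested by edgeR, with log2 fold changes from -0.52 in mt-Nd5 to 0.04 in mt-Nd1).

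Genes of antigen presentation on MHC class II were higher in the jejunum in 6 of 7 tested, with a median of -4.06. Cd74, the invariant chain, had 4.61, 9.36 and 11.7 CPM in the duodenum against 56.6, 271 and 100.4 CPM in the jejunum (log2 fold change -4.06 ± 0.75, adjusted p = 0.000103). H2-Aa, an alpha chain of the class II molecule, had 0.922, 1.81 and 1.24 CPM in the duodenum against 8.95, 49.2 and 22.9 CPM in the jejunum (log2 fold change -4.33 ± 0.89, adjusted p = 0.00037). The second jejunal library was the highest in both genes, and all jejunal libraries exceeded all duodenal ones. Enterocytes as well as immune cells can carry these proteins. Ptprc, the gene of CD45 used to remove immune cells, was at most 0.613 CPM in any of the 6 libraries, Adgre1 and C1qa had no read, and none of 5 tested B and plasma cell markers or 8 tested T cell markers was called by edgeR in the fit of all libraries. Igkc was called higher in the duodenum with no filter on low counts (2.05, adjusted p = 0.0172), and Jchain (adjusted p = 0.0158) and Itgae (adjusted p = 0.0155) were without the second jejunal library, the only jejunal one with a read of either gene. B and plasma cell markers summed to 7.48, 8.13 and 2.03 CPM in the duodenum and 0.639, 4.91 and 0.729 CPM in the jejunum. T cell markers summed to 2.05, 8.62 and 6.98 CPM in the duodenum and 0.767, 7.42 and 1.6 CPM in the jejunum. The second jejunal library, the highest in Cd74 and H2-Aa, was also the highest of its region in both lists. The part of these cells in the result was not tested. Without that library 6 of the 7 genes were still higher in the jejunum, with a median of -3.17.

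Most proliferation genes were higher in the duodenum, 12 of 15, and 3 were not called. Their summed level was 122 to 242 CPM in the duodenum and 27 to 60.2 CPM in the jejunum, below the 387 to 447 and 389 to 455 CPM of the Venus-negative cells of these regions. Top2a, a topoisomerase of dividing cells, had 24.8, 27.2 and 42.9 CPM in the duodenum against 1.73, 3.07 and 11.4 CPM in the jejunum (log2 fold change 2.56 ± 0.43, adjusted p = 3.93e-05). Cdk1, the kinase of mitosis, had 6.35, 19.3 and 15.1 CPM in the duodenum against 1.15, 0.725 and 2.26 CPM in the jejunum (log2 fold change 3.32 ± 0.45, adjusted p = 1.76e-06). The regions were separate in both genes. Of 8 stem cell markers 5 were higher in the duodenum, 1 was higher in the jejunum and 2 were not called. They summed to 488 to 997 CPM in the duodenum and 89.7 to 322 CPM in the jejunum, against 1660 to 2270 and 1480 to 2430 CPM in the Venus-negative cells. Olfm4, a secreted protein of crypt base columnar cells, had 424, 765 and 917 CPM in the duodenum against 48.6, 25.7 and 281 CPM in the jejunum (log2 fold change 2.57 ± 0.60, adjusted p = 0.00148). Lgr5, the receptor that defines these cells, had 1.84, 0.0821 and 3.04 CPM in the duodenum against 0.320, 0.112 and 1.24 CPM in the jejunum and was not called (log2 fold change 1.57 ± 0.86, adjusted p = 0.165). It passed without the third jejunal library (2.87, adjusted p = 0.0315) and with no filter on low counts (1.55, adjusted p = 0.0299). Axin2, a Wnt target, was higher in the jejunum (log2 fold change -1.46 ± 0.41, adjusted p = 0.0063), with 9.94, 15.9 and 15.6 CPM in the duodenum against 19.4, 74.1 and 20.5 CPM in the jejunum. Its log2 fold change was -0.49 (adjusted p = 0.35) without the second jejunal library.

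Marker lists of other cell types summed to low levels, at most 119 CPM in any of the 6 libraries, in the enteroendocrine list. Of 19 enteroendocrine markers 16 were not called, 1 was higher in the duodenum and 2 were higher in the jejunum. Nts, the peptide neurotensin of distal endocrine cells, had 2.97, 0.410 and 0.338 CPM in the duodenum against 36.3, 19.97 and 39.9 CPM in the jejunum (log2 fold change -4.70 ± 0.71, adjusted p = 8.52e-06). Chga, a general endocrine marker, had 8.40, 12.3 and 2.36 CPM in the duodenum against 4.86, 16.8 and 13.9 CPM in the jejunum and was not called (log2 fold change -0.61 ± 0.51, adjusted p = 0.383). Of 10 tested tuft cell markers 3 were higher in the duodenum at a summed level of 11 to 15.1 CPM against 5.83 to 6.53 CPM. Gastric and Brunner's gland markers summed to 0.819 to 5.17 CPM in the duodenum and 0 to 0.146 CPM in the jejunum, with Tff2 and Pgc called and at 0 in all jejunal libraries. Exocrine pancreas genes had at most 2 reads in any library in 9 of 10 cases. The other, the elastase Cela1, had 2.46, 6.65 and 2.59 CPM in the duodenum against 0.959, 2.29 and 1.97 CPM in the jejunum and was not called (log2 fold change 1.18 ± 0.51, adjusted p = 0.0734), although it was called higher in the duodenum in 5 of the settings tried, among them at least 10 counts in all 6 libraries (adjusted p = 0.0301). Lyz2 was the 1 myeloid marker called, Vwf and Clec14a the endothelial and Dcn the mesenchymal ones, in lists that summed to at most 29.4, 4.51 and 2.25 CPM in any library. The call of Lyz2 was lost without the second duodenal (1.80, adjusted p = 0.249), the first jejunal (2.35, adjusted p = 0.124) or the second jejunal library (2.003, adjusted p = 0.137). Lyz2 was also not called by DESeq2 (2.49, adjusted p = 0.132) or with offsets for GC content and exon length (2.02, adjusted p = 0.0749). Without the first duodenal library Clec14a was at 4.90 (adjusted p = 0.0813) and Dcn at 2.84 (adjusted p = 0.416), and Dcn was not called without any one of the jejunal libraries either (5.87 to 5.91), nor with thinned counts (4.94), offsets for GC content and exon length (5.97) or the i5 index as a covariate (5.80).

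The largest differences included genes with few or no reads in 1 region. They were ranked among called protein-coding genes of at least 10 CPM in their higher region, with no overlap between the libraries of the regions. The 10 largest on the duodenal side were Ly6a, Ifi27l2a, Pdx1, S100g, Akp3, Reg1, Tmprss15, Sult6b2, B3gnt5 and Slc22a15. Ly6a, the stem cell antigen Sca-1, had 13.2, 3.61 and 13.3 CPM in the duodenum and no read in the jejunum, at least 45.9-fold higher when the jejunum is set at 3 reads per library. On the jejunal side they were Npl, Plb1, Fam151a, Pmp22, Slc34a2, Slc5a8, Osr2, Hspa12a, Enpp7 and Clca4a. Npl, a sialic acid lyase, had 1 read in the duodenal libraries together and 33.2, 44.6 and 42.5 CPM in the jejunal ones, a ratio of 1240 with a 95% counting interval of 222 to 49000. Plb1, the brush-border phospholipase B, had 0.922, 0.328 and 0.788 CPM in the duodenum against 318, 601 and 458 CPM in the jejunum (log2 fold change -9.42 ± 0.74, adjusted p = 3.39e-10). Slc34a2, the intestinal sodium-phosphate cotransporter, had 1.33, 2.22 and 4.39 CPM in the duodenum against 406, 533 and 438 CPM in the jejunum (log2 fold change -7.45 ± 0.56, adjusted p = 1.22e-10). Clca4a, a chloride channel regulator of villus enterocytes, had 4.71, 3.86 and 12.2 CPM in the duodenum against 1101, 677 and 503 CPM in the jejunum (log2 fold change -6.79 ± 0.97, adjusted p = 3.54e-06). Of these genes 8 of the 10 duodenal and 9 of the 10 jejunal ones were called in the same direction in Venus-negative cells.

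Most of the regional difference was not called in the Venus-negative cells. Of the 46 genes higher in the duodenum there, 29 (63%) were also higher in the duodenum in Venus-positive cells, which is 1.05% of the 2765. Of the 63 higher in the jejunum, 51 (81%) were shared, which is 2.29% of the 2226. The difference between the 2 contrasts was tested as an interaction, and 1319 genes (8.77%) had a more positive and 878 (5.84%) a more negative log2 fold change in Venus-positive cells. Among goblet markers 18 of 22 passed this test and none was called in Venus-negative cells, where Muc2 had 8.50 ± 4.39 CPM in the duodenum and 12.2 ± 6.69 CPM in the jejunum (mean ± SD). Of the 20 brush-border enzymes 16 were more negative in Venus-positive cells by this test, and 2 were higher in the duodenum and 4 higher in the jejunum in Venus-negative cells. Mep1a had 4.51 ± 2.002 CPM in the duodenum and 18.5 ± 2.74 CPM in the jejunum (mean ± SD) in Venus-negative cells and was called there (log2 fold change -2.04 ± 0.32, adjusted p = 0.000389). Its interaction was -3.07 ± 0.45 on the log2 scale (adjusted p = 6.65e-05). Akp3 was higher in the duodenum in both sorts, with 154 ± 54.7 CPM in the duodenum and 1.02 ± 0.479 CPM in the jejunum (mean ± SD) in Venus-negative cells (log2 fold change 7.23 ± 0.51, adjusted p = 1.51e-10). For Akp3 the interaction was 0.25 ± 0.62 on the log2 scale (adjusted p = 0.843) and was not called. Enpp7 had 1.10 ± 0.453 CPM in the duodenum and 51.96 ± 24.2 CPM in the jejunum (mean ± SD) (log2 fold change -5.57 ± 0.56, adjusted p = 1.63e-07). For Enpp7 the interaction was -1.27 ± 0.70 on the log2 scale (adjusted p = 0.238).

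**Figure D4:**
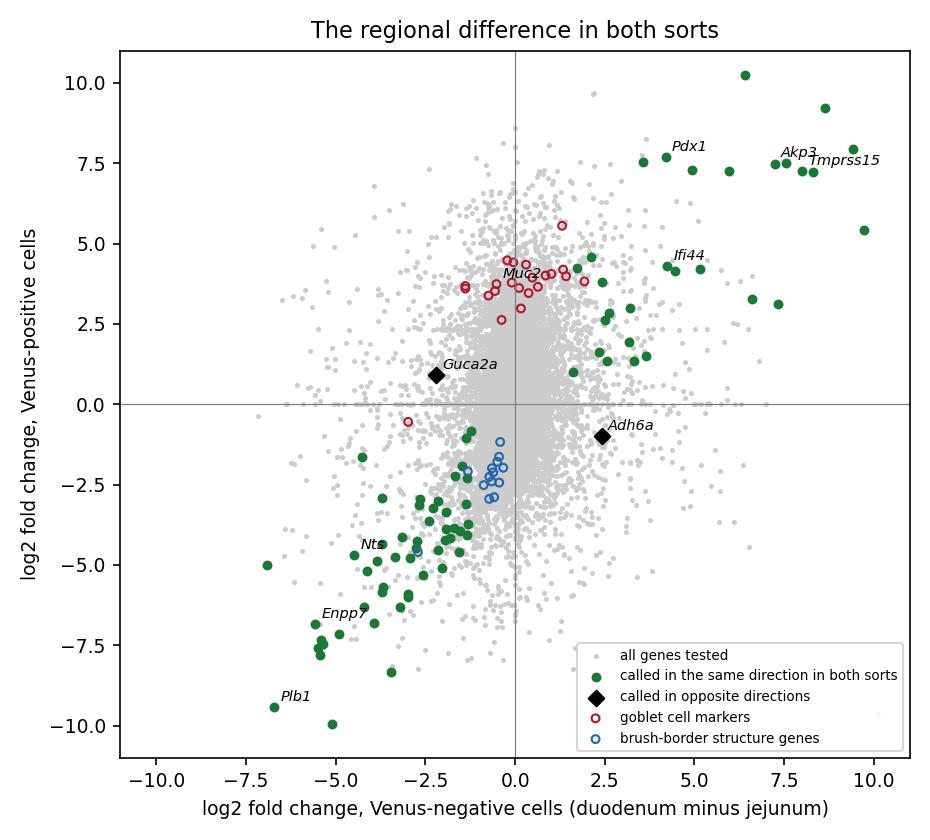
Log2 fold change (duodenum minus jejunum) of each gene tested in Venus-negative cells on the horizontal axis and in Venus-positive cells on the vertical axis. All genes are grey except those called in both sorts, green in the same and black in opposite directions. Goblet cell markers and brush-border structure genes are outlined. The 29 and 51 genes called in the same direction in both sorts lie in opposite corners. The far larger number called only in Venus-positive cells has no colour of its own and spreads along the vertical axis.

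Of the genes called in both sorts, Guca2a and Adh6a were called in opposite directions, and for each this was lost under several settings (those of Guca2a are given above). Guca2a had 5.28 ± 2.27 CPM in the duodenum and 24.5 ± 3.11 CPM in the jejunum (mean ± SD) in Venus-negative cells (log2 fold change -2.21 ± 0.34, adjusted p = 0.000314), a higher level in the jejunum. The interaction of Guca2a was 3.11 ± 0.47 on the log2 scale (adjusted p = 8.5e-05). Cells were sorted by Venus, which the regulatory sequence of Guca2a drives. Its level in each sort, and so this interaction, is not independent of the gate. Adh6a, an alcohol dehydrogenase, had 23.04, 23.97 and 47.05 CPM in the duodenum against 86.03, 45.6 and 53.8 CPM in the jejunum in Venus-positive cells (log2 fold change -0.98 ± 0.38, adjusted p = 0.0439). In Venus-negative cells Adh6a had 67.5 ± 23.7 CPM in the duodenum and 12.6 ± 1.92 CPM in the jejunum (mean ± SD) (log2 fold change 2.42 ± 0.39, adjusted p = 0.000516). The interaction of Adh6a was -3.40 ± 0.54 on the log2 scale (adjusted p = 0.000144). Its call in Venus-positive cells, and so the opposite direction, was lost with library size alone (adjusted p = 0.125), upper-quartile factors (0.0682), at least 10 counts in all 6 libraries (0.0881) and thinned counts (0.0537). It was also lost without the first duodenal (-0.81, adjusted p = 0.162), the second duodenal (-0.83, adjusted p = 0.167) or the first jejunal library (-0.68, adjusted p = 0.242). Pdx1 kept its direction in Venus-negative cells, with 12.98 ± 1.06 CPM in the duodenum and 0.707 ± 0.653 CPM in the jejunum (mean ± SD) (log2 fold change 4.20 ± 0.81, adjusted p = 0.00502). Defa21 had 0.899 ± 0.575 CPM in the duodenum and 17.7 ± 6.07 CPM in the jejunum (mean ± SD) there (log2 fold change -4.27 ± 0.68, adjusted p = 0.000399), the same direction as in Venus-positive cells.

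Interferon-stimulated genes were prominent among the duodenal genes that both sorts share, making up 11 of the 29. The list of 49 such genes was assembled after these values were seen, and its counts are a description. Of these genes 15 of 49 (30.6%) were higher in the duodenum in Venus-positive cells, against 18.4% of all genes, and 15 of 49 in Venus-negative cells, against 0.306%. The median log2 fold change was 0.65 in the fluorescent and 1.81 in the non-fluorescent cells, where 47 of the 49 were above 0. Ifi44, an interferon-induced protein, had 22.6, 28.6 and 29.6 CPM in the duodenum against 1.21, 1.73 and 1.09 CPM in the jejunum in Venus-positive cells (log2 fold change 4.31 ± 0.69, adjusted p = 1.76e-05). In Venus-negative cells Ifi44 had 17.2 ± 7.70 CPM in the duodenum and 0.885 ± 0.975 CPM in the jejunum (mean ± SD) (log2 fold change 4.24 ± 0.70, adjusted p = 6e-04). Oas2, a sensor of double-stranded RNA, had 36.1, 26.03 and 19.4 CPM in the duodenum against 0.831, 2.73 and 0.729 CPM in the jejunum (log2 fold change 4.22 ± 0.74, adjusted p = 5.39e-05). Ifi27l2a had 39.2, 26.03 and 17.8 CPM in the duodenum against 0.128, 0.112 and 0.0729 CPM in the jejunum (log2 fold change 7.93 ± 0.90, adjusted p = 1.9e-07). In Venus-negative cells Ifi27l2a had 5.62 ± 3.38 CPM (mean ± SD) in the duodenum and no read in the jejunum. Every duodenal library exceeded every jejunal library in these 3 genes. Parp14 had the opposite direction in Venus-positive cells, with 91.05, 83.5 and 73.3 CPM in the duodenum against 176, 221 and 231 CPM in the jejunum (log2 fold change -1.34 ± 0.33, adjusted p = 0.00241). Isg15, a ubiquitin-like protein, had 25.7, 22.2 and 40.4 CPM in the duodenum against 25.6, 11.8 and 16.8 CPM in the jejunum and was not called in Venus-positive cells (log2 fold change 0.70 ± 0.61, adjusted p = 0.398). It was called in Venus-negative cells (log2 fold change 3.45 ± 0.71, adjusted p = 0.00804), and the interaction was -2.75 ± 0.92 on the log2 scale (adjusted p = 0.0409). T cell and B cell marker sums, given above, overlapped between the regions in Venus-positive cells.

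**Figure D5:**
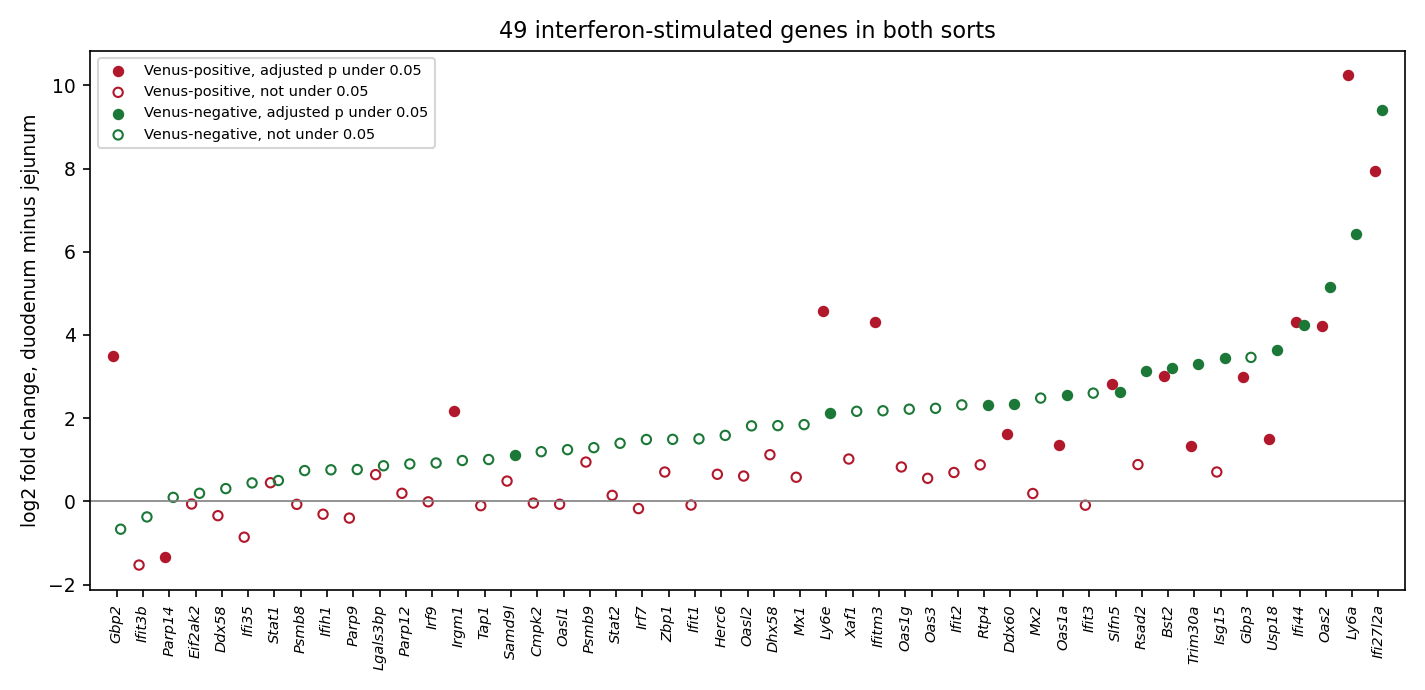
Log2 fold change (duodenum minus jejunum) of 49 interferon-stimulated genes in both sorts, ordered by the value in Venus-negative cells. In Venus-negative cells 47 genes lie above 0, and in Venus-positive cells the values spread to both sides.

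Bst2 (tetherin), Oas1a and Slfn5 were higher in the duodenum in both sorts. Their windows are shown with matches to a short pattern of the interferon-stimulated response element. It was searched on either strand as GAAA, any 2 bases and GAAA again, and matches are in capitals. The match of Slfn5 runs into a longer stretch of A, and no match is evidence of binding.

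Bst2, chr8:71537423-71537722, minus strand: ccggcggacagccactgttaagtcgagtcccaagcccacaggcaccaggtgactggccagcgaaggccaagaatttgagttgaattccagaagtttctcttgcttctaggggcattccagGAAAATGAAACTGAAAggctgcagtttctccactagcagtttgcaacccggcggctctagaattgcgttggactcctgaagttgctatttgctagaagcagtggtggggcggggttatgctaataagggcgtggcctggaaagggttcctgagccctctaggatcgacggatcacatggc
Oas1a, chr5:120907476-120907775, minus strand: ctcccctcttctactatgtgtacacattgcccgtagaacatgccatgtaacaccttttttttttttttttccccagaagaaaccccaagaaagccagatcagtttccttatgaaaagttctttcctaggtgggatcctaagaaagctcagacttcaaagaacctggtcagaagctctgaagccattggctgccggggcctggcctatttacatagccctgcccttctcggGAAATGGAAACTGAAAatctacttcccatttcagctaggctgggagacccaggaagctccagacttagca
Slfn5, chr11:82951852-82952151, plus strand: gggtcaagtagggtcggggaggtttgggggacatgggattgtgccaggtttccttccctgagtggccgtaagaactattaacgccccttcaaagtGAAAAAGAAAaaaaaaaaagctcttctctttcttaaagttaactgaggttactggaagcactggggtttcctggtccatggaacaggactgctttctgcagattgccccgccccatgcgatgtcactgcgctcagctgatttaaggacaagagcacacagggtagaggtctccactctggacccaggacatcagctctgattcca

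Bst2 had 8.91, 6.81 and 12.5 CPM in the duodenum against 1.34, 1.12 and 1.02 CPM in the jejunum (log2 fold change 3.01 ± 0.68, adjusted p = 0.00101). Oas1a had 17.1, 17.6 and 17.4 CPM in the duodenum against 5.56, 8.59 and 6.34 CPM in the jejunum (log2 fold change 1.35 ± 0.43, adjusted p = 0.0157). Slfn5 had 15.7, 15.9 and 15.9 CPM in the duodenum against 2.43, 2.45 and 1.75 CPM in the jejunum (log2 fold change 2.83 ± 0.55, adjusted p = 0.000217). In these 3 genes every duodenal library exceeded every jejunal one. The call of Oas1a was lost without the first jejunal library (1.21, adjusted p = 0.0756) and with offsets for GC content and exon length (0.98, adjusted p = 0.0695). Of the 36 listed genes with a promoter window 20 (55.6%) held the motif, against 3.99% of all 27025 genes, and of these 20, 9 were higher in the duodenum in Venus-positive cells and 11 were not called. Over the whole table the motif was in 3.82% of the windows of genes higher in the duodenum, 3.65% of those of genes higher in the jejunum and 3.64% of those of all genes tested.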

How the data were processed

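Cells were sorted per region from 3 mice, RNA was made into libraries with a SMARTer stranded total RNA pico kit, and 50-base single-end reads were sequenced on a HiSeq 4000, according to the labels and the methods of the study. The authors aligned reads to GRCm38 with STAR (version 2.5.1 in the submitters' processing notes, which also name CASAVA) and deposited raw read counts per gene, which STAR also made; the strand setting and the annotation are not given in the sources used here, so reads of overlapping or antisense genes cannot be told apart. The deposited table holds 53465 genes, of which 53360 matched GENCODE M21 for symbols and exon lengths. Its 4 rows that name no gene (64.6 to 75.8% of reads in the duodenal and 51.9 to 60.3% in the jejunal Venus-positive libraries) were left out. Between Venus-positive libraries of 1 region, chi-square statistics per degree of freedom were 56.3 to 160, so none was a repeat of another.

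From these counts edgeR 4.0.16 (R 4.3.3) fitted its quasi-likelihood model to all 24 libraries in 8 groups of region and sort, with TMM factors, genes kept by filterByExpr (minimum count 10, total 15), 16 residual degrees of freedom and Benjamini-Hochberg adjustment over 15044 genes at 0.05, two-sided. CPM uses TMM-scaled library sizes; CPM and RPKM were computed here. The study used DESeq2, which was run as an alternative (DESeq2 1.42.0). Compared with TMM, the scaling alone shifted the log2 ratio of duodenum to jejunum by -0.03 with RLE factors, 0.10 with upper-quartile factors and 0.14 with library size alone. These shifts were computed from the scaled library sizes, without a new fit. Both Venus-positive groups hold 2 libraries of one i5 index and 1 of another. Intervals and the 3-count limit cover counting error only. The fit was tested on simulated data. Genes named are the 4 markers and the guanylin pathway, the 10 largest differences each way, and the 3 largest called of each list. Those 10 were ranked among called protein-coding genes of at least 10 CPM whose libraries did not overlap between the regions. Others of the lists were named for their role or because they fell outside the rule, after their values were seen. The comparison and the 37 lists were chosen with earlier results of these data known. The interferon list and the motifs were chosen after these values were seen. Promoters are RefSeq windows of GRCm38.p6, matched by symbol (27025 genes). Figures were drawn with matplotlib 3.10.9 in Python 3.11.15. Some genes of the lists are counted but not reported by name here.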

Additional observations from a re-analysis of the deposited data

Results flagged for a closer look

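These results differed between the sorts by a test of the difference itself (edgeR interaction, Benjamini-Hochberg adjusted). Over all genes, 1319 had a more positive and 878 a more negative duodenum minus jejunum log2 fold change in the fluorescent cells than in the others. The interaction of Muc2 was 4.26 (adjusted p = 3.98e-05), that of Spdef was 3.46 (adjusted p = 0.002), that of Mep1a was -3.07 (adjusted p = 6.65e-05) and that of Vil1 was -1.75 (adjusted p = 0.00415). Guca2a (3.11, adjusted p = 8.5e-05) and Adh6a (-3.40, adjusted p = 0.000144) were called in opposite directions in the sorts, but their calls in Venus-positive cells were lost under several settings, Guca2a with offsets for GC content and exon length (-0.09, adjusted p = 0.829) and Adh6a with library size alone (-0.86, adjusted p = 0.125) among them. The level of Guca2a in each sort is not independent of the gate, which was set on Venus. Defa21 (2.63, adjusted p = 0.0351) was higher in the jejunum in both sorts, and by more in Venus-negative cells, but its Venus-positive libraries overlapped between the regions and that call was lost without the third jejunal library (-0.28, adjusted p = 0.703) and in 3 other settings. Reg1 (2.36, adjusted p = 0.00921) and S100g (3.97, adjusted p = 0.00885) were higher in the duodenum in both sorts, and by more in Venus-positive cells. Single outlying libraries were not tested for, with 3 libraries in each group.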

How the results depend on the processing

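With 2765 genes higher in the duodenum and 2226 higher in the jejunum, settings other than leaving out a library gave 1979 to 3013 and 1521 to 2613, apart from a stricter threshold. At an adjusted p of 0.01, 1747 genes were higher in the duodenum, 1009 passed the interaction test and 65 differed in Venus-negative cells. The last count was 235 with no filter on low counts and 61 with at least 10 counts in all 6 libraries. Leaving out 1 library at a time gave 1948 to 2844 genes higher in the duodenum, 1623 to 2186 higher in the jejunum, 1493 to 2651 in the interaction and 70 to 95 in Venus-negative cells, the lowest without the second duodenal library of that sort. DESeq2 called 5486 genes and shared 4959 calls, with none in the opposite direction. Among lists, Paneth markers higher in the duodenum fell to 7 with offsets for GC content and exon length, and MHC class II genes higher in the jejunum to 3 with at least 10 counts in all 6 libraries.

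Of 211 single genes tested, 181 were called, and 153 of these kept their call in every setting run on them. The sign changed in these cases, and the cause was not tested. With offsets for GC content and exon length, Guca2a was -0.087, Gzma -0.053, Isg15 -0.228, Ndufb6 -0.009 and Sct -0.132. With library size alone Atp5a1 was 0.004 and Ifit1 0.02. With upper-quartile factors Ifit1 was 0.012. With at least 10 counts in all 6 libraries Atp5a1 was 0.034, Ifit1 0.11 and Irf7 0.025. With counts thinned to equal depth B3gnt6 was 0.048. Such thinning cannot match both all reads and those outside the mitochondrial genome, since the mitochondrial share differed between libraries. Leaving out single libraries, Atp5a1 ran from -0.549 to 0.069, Cd68 from -1.64 to 0.259, Defa22 from -1.832 to 0.129, Ifit1 from -0.264 to 0.119, Pdgfra from -1.9 to 4.673, Retnlb from -0.513 to 8.737, Syvn1 from -0.047 to 0.239, Tek from -0.777 to 0.299 and B3gnt6 from -1.879 to 0.399. None of these was called under the changed sign. No paired analysis was run, because the labels name no mouse and number no replicates. Whether libraries of the same number in different groups came from the same mouse was not tested. The models therefore leave out any sharing of mice between regions or sorts. Depth limits genes near 3 reads a library, such as the markers of rare cell types.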
